A study of Mus musculus with 12 samples.

Results

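The SR splicing factors SRSF1 to SRSF10 were followed in RNA-Seq of U2OS cells, a human osteosarcoma cell line. The members were the 10 protein-coding genes, of 58735 genes listed, whose full name begins with serine and arginine rich splicing factor and ends with a number from 1 to 10. No measured value was used to choose them, and all 10 passed the filter on low values. The 12 libraries fell into 4 groups of 3 replicates: blank U2OS cells, U2OS cells given the siRNA siSRSF1-2, U2OS cells given the siRNA siSRSF1-3, and U2OS cells that overexpress the long non-coding RNA LINC01134 (OE-LINC01134). Both siRNAs target SRSF1, named ASF in the column headers. The labels list neither an agent for the blank cells nor a control siRNA or empty vector in any library, so transfection and siRNA, or vector and LINC01134, cannot be told apart. The labels give no siRNA dose or harvest time. The methods give one of each for siRNA transfection in general and place transient transfection in HOS cells, another osteosarcoma line, so it is not settled that they hold for these U2OS libraries. The supplementary methods speak of fewer biological replicates per condition than the libraries deposited, and a passage of the paper of as many experimental repeats as libraries. It is thus not settled which libraries came from separate cultures, and p-values measure the spread between these libraries, which may be technical.

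SR proteins carry RNA recognition motifs that bind exons and a tail rich in arginine-serine repeats that recruits the spliceosome. They mark exons for inclusion, take part in mRNA export and translation, and are moved between nuclear speckles, nucleoplasm and cytoplasm by SRPK and CLK kinases, which phosphorylate the tail. Many genes of the family hold a poison exon, whose inclusion sends their own mRNA to decay, and members can act in this way on their own mRNA and on that of their relatives. SRSF1 is known as a proto-oncogene. The values here are levels per gene, which do not resolve a poison exon.

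The libraries held 26237763 to 32954539 reads on genes, and a member had between 218 reads (SRSF1 in an siSRSF1-3 library) and 13475 reads (SRSF5) in a library. The mesenchymal markers VIM, SPARC, COL1A1, FN1, CD44 and RUNX2 were at 1.55 FPKM or above in every library, whereas COL1A2 (at most 0.0131 FPKM) and TWIST1 (at most 0.190 FPKM) were near 0. Of the markers of other cell types, CD3E was at 0, KRT19 reached 0.240 FPKM and EPCAM 2.43 FPKM. LINC01134 was at 0.791, 0.519 and 0.497 FPKM in the blank libraries and at 891, 1279 and 878 FPKM in OE-LINC01134 (log2 fold change 10.50, standard error 0.215, exact two-sided permutation p = 0.1, the smallest that 3 libraries against 3 allow). Replicates differed unevenly from one another. Over genes, the chi-square per degree of freedom between libraries, which is near 1 for sampling noise alone, was 2.13 to 3.20 for blank replicates 2 and 3, OE-LINC01134 replicates 1 and 3 and all 3 siSRSF1-2 libraries, and 63.2 to 316 for every other pair of replicates. The deposited scaling raised siSRSF1-3 replicates 1 and 2, whose implied library sizes were 0.712 and 0.888 times their read totals, against 0.990 to 1.09 times elsewhere.

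In blank cells the family spanned 9.90 to 63.4 FPKM per gene, a unit divided by the gene length that the file lists. That length ran from 3017 bases for SRSF2 to 10277 bases for SRSF10, and whether it matches the transcripts of these cells was not tested. The order, percentiles and shares of different genes rest on it. SRSF10, for example, had 4485 to 6536 reads in blank cells and SRSF1 (3340 bases) 1876 to 3323 reads. SRSF5 was the highest, with 61.9, 63.1 and 65.1 FPKM, at percentile 95.7 of the 12270 protein-coding genes tested. It was followed by SRSF3, SRSF6, SRSF7, SRSF2, SRSF9, SRSF1, SRSF10, SRSF8 and SRSF4, the last at percentile 64.1. The blank ranges of SRSF5 and SRSF3, of SRSF10 and SRSF8 and of SRSF8 and SRSF4 did not overlap, and the ranges of the other neighbours in this order did. Within each of the blank libraries SRSF3 was nevertheless above SRSF6, SRSF9 above SRSF1 and SRSF1 above SRSF10, while the order of SRSF6, SRSF7, SRSF2 and SRSF9 changed between libraries. SRSF1 held rank 7 in each blank library, at 25.4 ± 9.14 FPKM (SD, n = 3), and rank 10 in each of the siRNA libraries. SRSF6 held rank 4 in every blank library, rank 2 in every siSRSF1-2 library, and ranks 1, 2 and 2 with siSRSF1-3.

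The blank libraries were not alike in these genes. Blank replicate 1 had the highest value of the group for 9 of the 10 members, up to 2.2 times the mean of the other blank libraries for SRSF2, and the lowest value for SRSF5. The median coefficient of variation over the members was 18.4% in blank cells, 16.5% with siSRSF1-3, 4.62% in OE-LINC01134 and 2.27% with siSRSF1-2. Each comparison with blank cells below is therefore also given without blank replicate 1 where that changed a call.

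**Figure D1:**
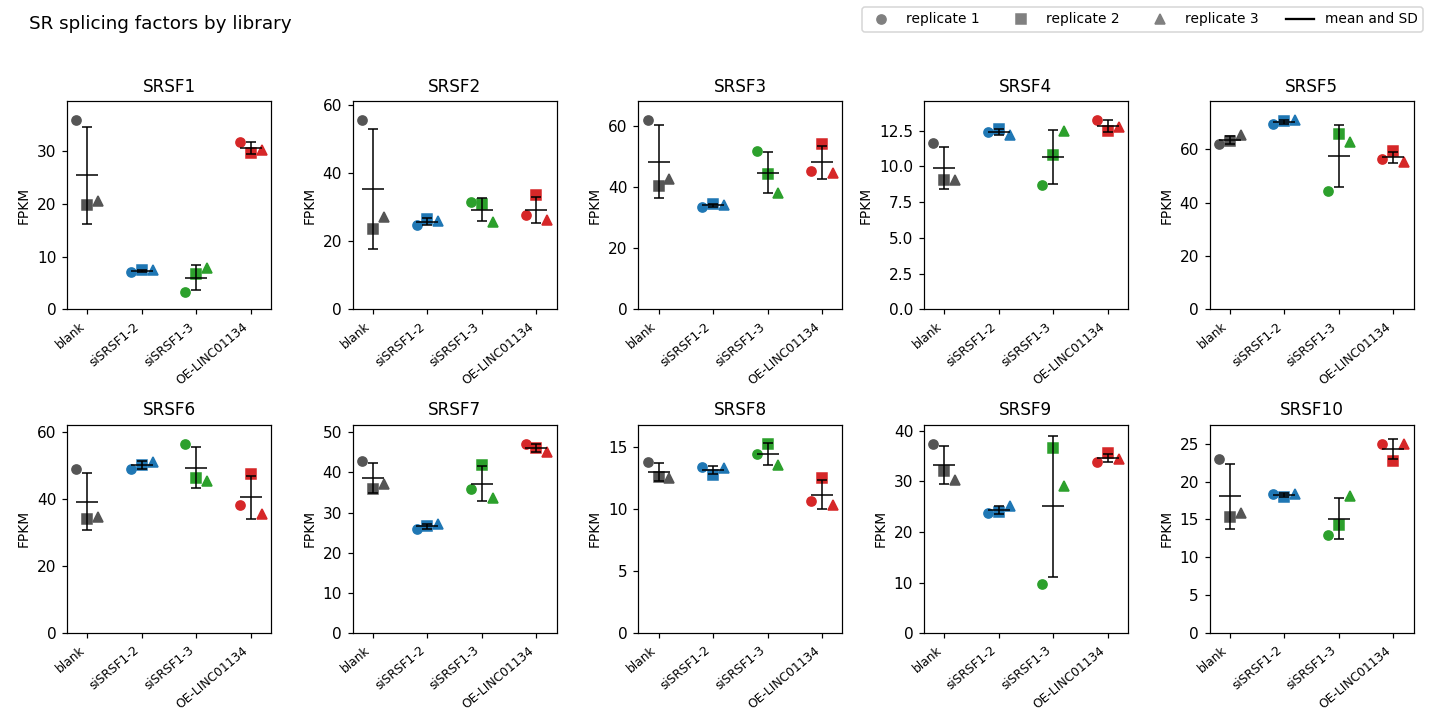
FPKM (vertical axis, from 0) of each SR splicing factor in the 12 libraries, by group on the horizontal axis, with replicates 1, 2 and 3 as circle, square and triangle and a bar for the mean and SD of 3 libraries. SRSF1 is at 3.33 to 7.90 FPKM in the 6 siRNA libraries and at 19.8 FPKM or above in the other libraries, blank replicate 1 lies above the other blank libraries for 9 of 10 genes, and SRSF9 is at 9.66 FPKM in siSRSF1-3 replicate 1 alone.

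The comparison of siSRSF1-2 with blank cells asked which relatives of SRSF1 move when SRSF1 is depleted. SRSF1, SRSF7 and SRSF9 fell and none of the 10 rose at a Benjamini-Hochberg adjusted p under 0.05 over the 17538 genes tested (limma), while 26.8% of all genes tested passed, 12.8% lower and 14.0% higher. At an unadjusted p under 0.05, 7 members and 40.3% of all genes passed. The count of 3 of 10 was thus close to the share among all genes. With the further condition of an absolute log2 fold change over 1, SRSF1 alone remained, where 4.95% of all genes passed. The median log2 fold change was -0.16 over the 10 members and 0.02 over all genes tested.

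SRSF1, the target, is listed as ENSG00000136450 at chr17:58003360-58007346 on the minus strand, in a genome build that the file does not name. It was at 7.09, 7.46 and 7.41 FPKM with siSRSF1-2 against 35.9, 19.8 and 20.5 FPKM in blank cells, 28.8% of the blank mean. The 3 siRNA libraries lay close together and below every blank library. In bulk libraries such as these, less SRSF1 in every cell and a smaller share of cells with SRSF1 cannot be told apart. Its log2 fold change was -1.72 (standard error 0.232, adjusted p = 0.00500 from limma).

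SRSF9 (ENSG00000111786, chr12:120461668-120469793, minus strand), which resembles SRSF1 in having a pair of RNA recognition motifs and a short arginine-serine tail, was at 23.8, 23.9 and 25.2 FPKM with siSRSF1-2 and at 37.5, 32.0 and 30.3 FPKM in blank cells. The groups did not overlap. SRSF9 fell by 0.45 on the log2 scale, with a standard error of 0.0907 (adjusted p = 0.0168 from limma). It no longer passed when any one of the 3 siSRSF1-2 libraries was left out, nor in a single fit over all 4 groups.

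SRSF7 (ENSG00000115875, chr2:38743599-38751494, minus strand) and SRSF3 (ENSG00000112081, chr6:36594353-36605600, plus strand) are small members with a single RNA recognition motif and known adaptors for mRNA export. SRSF7 was at 25.9, 26.7 and 27.1 FPKM with siSRSF1-2 against 42.8, 35.9 and 37.1 FPKM in blank cells, every siRNA library below every blank one. It fell by 0.53 on the log2 scale, with a standard error of 0.0810 (adjusted p = 0.00724 from limma). SRSF3 was at 33.5, 34.5 and 34.2 FPKM with siSRSF1-2 and at 61.8, 40.2 and 42.4 FPKM in blank cells, so its groups did not overlap either. Its log2 fold change of -0.47 (95% interval -0.87 to -0.07) did not pass (adjusted p = 0.0838 from limma).

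SRSF4 (ENSG00000116350, chr1:29147743-29181987, minus strand), SRSF5 (ENSG00000100650, chr14:69726900-69772005, plus strand) and SRSF6 (ENSG00000124193, chr20:43457928-43464247, plus strand), longer members with a pair of RNA recognition motifs, had positive log2 fold changes, and none of them passed. SRSF4 was at 12.4, 12.6 and 12.2 FPKM with siSRSF1-2 and at 11.6, 9.02 and 9.06 FPKM in blank cells, without overlap. SRSF5 was at 69.5, 70.3 and 70.9 FPKM against 61.9, 63.1 and 65.1 FPKM, again without overlap. SRSF6 was at 49.0, 50.2 and 51.2 FPKM against 49.1, 33.9 and 34.7 FPKM. For SRSF6 blank replicate 1 lay within the siRNA range and the other blank libraries below it. Their log2 fold changes were 0.33 (95% interval 0.06 to 0.60) for SRSF4, 0.15 (0.03 to 0.27) for SRSF5 and 0.37 (0.01 to 0.73) for SRSF6, with adjusted p of 0.0727, 0.0748 and 0.113 from limma.

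SRSF2 (ENSG00000161547, chr17:76734115-76737374, minus strand), a marker of nuclear speckles, SRSF8 (ENSG00000263465, chr11:95067197-95071224, plus strand), a gene derived from an SRSF2 transcript, and SRSF10 (ENSG00000188529, chr1:23964804-23980927, minus strand), which represses splicing when it is dephosphorylated, overlapped between the groups. SRSF2 varied the most in blank cells, at 55.5, 23.6 and 27.0 FPKM, against 24.7, 26.6 and 25.9 FPKM with siSRSF1-2. The 95% interval of its log2 fold change ran from -1.11 to 0.41. The interval was narrower for SRSF8, from -0.14 to 0.18, and ran from -0.35 to 0.42 for SRSF10. In all, 2 members lay above and 4 below the blank libraries without overlap, where 49.5% of all genes tested did not overlap.

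These calls depended on 1 blank library and on the scaling. Without blank replicate 1, 8 of 10 members passed (52.2% of all genes): SRSF4, SRSF5, SRSF6 and SRSF10 higher, by 0.45, 0.13, 0.55 and 0.22 on the log2 scale, and SRSF1, SRSF3, SRSF7 and SRSF9 lower. With scaling to the read total of each library, which raised the median of all genes from 0.02 to 0.06, SRSF4 and SRSF6 passed as higher beside the 3 lower members. Of all genes, 27.3% passed under this scaling. Rescaled to the same FPKM sum, with a median of 0.15, SRSF4, SRSF5 and SRSF6 passed as higher beside the same 3 lower members, so the split between higher and lower members went from 0 and 3 to 3 and 3. Here 30.0% of all genes passed. SRSF1, SRSF7 and SRSF9 were lower under each of these scalings. With the 3 siSRSF1-2 libraries averaged to 1 sample, 0 members and 0 of all genes passed (2 members at an unadjusted p under 0.05).

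**Figure D2:**
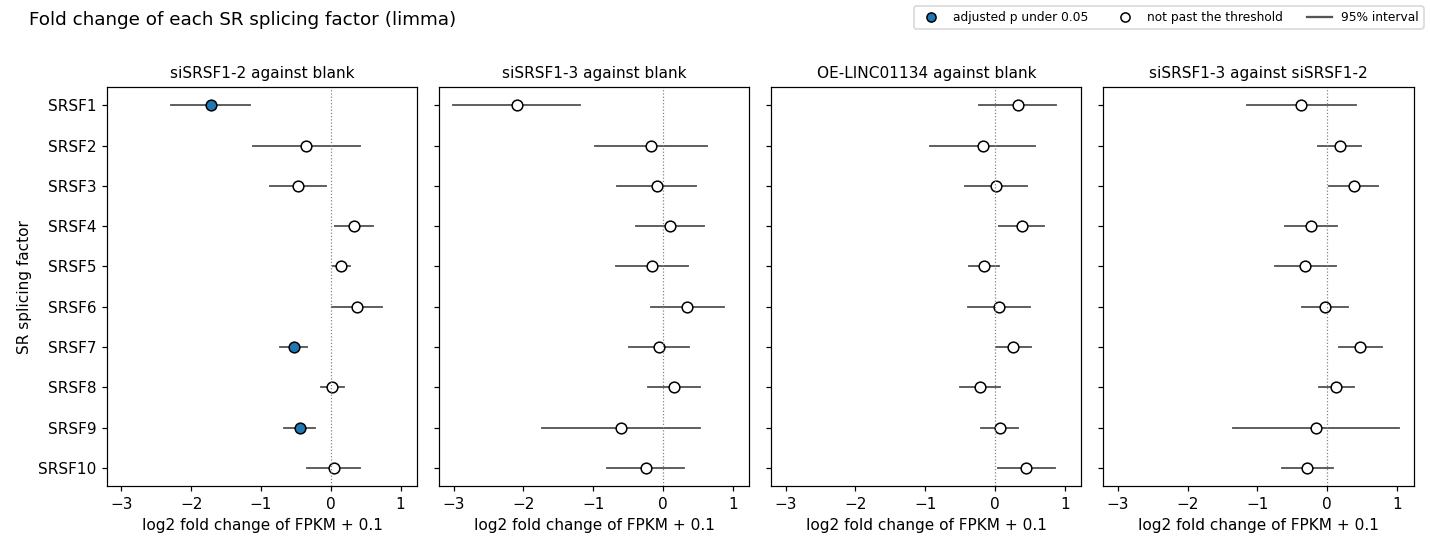
Log2 fold change of FPKM + 0.1 (horizontal axis) of the 10 SR splicing factors (vertical axis) in 4 comparisons of 3 with 3 libraries, as limma estimates with 95% intervals, filled where the adjusted p was under 0.05. Filled points are found for SRSF1, SRSF7 and SRSF9 with siSRSF1-2 only, and SRSF9 with siSRSF1-3 has the widest interval against blank cells, from -1.74 to 0.53.

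The second siRNA, siSRSF1-3, was compared with blank cells for the same question. None of the 10 members passed (limma), against 1.28% of all genes tested, 1 member had an unadjusted p under 0.05 (28.8% of all genes), and limma's voom on the recovered reads called 1 (3.85% of all genes). That member was SRSF1, at 3.33, 6.81 and 7.90 FPKM, 23.7% of the blank mean. All 3 of its siRNA libraries lay below the blank libraries (37.2% of all genes tested did not overlap), and the other 9 members overlapped. Its log2 fold change of -2.09 (standard error 0.385) had an adjusted p of 0.0518 from limma, and it passed with a pseudocount of 1, with voom, in the single fit over all 4 groups (adjusted p = 0.00370 from limma) and without siSRSF1-3 replicate 3 (adjusted p = 0.0140), over alternatives whose adjusted p ranged from 0.00370 to 0.223.

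SRSF9 was split between the siSRSF1-3 libraries, at 9.66, 36.7 and 29.0 FPKM. Replicate 1 lay at 0.294 times the mean of the other replicates, while those 2 replicates fell on either side of the blank mean of 33.3 FPKM. Its log2 fold change was -0.60 (95% interval -1.74 to 0.53) with all libraries and -0.02 without replicate 1. SRSF7, which fell with siSRSF1-2, was at 36.0, 42.0 and 33.7 FPKM with siSRSF1-3, overlapping with blank cells (log2 fold change -0.06, 95% interval -0.49 to 0.38). SRSF6, at 56.6, 46.3 and 45.4 FPKM, had a log2 fold change of 0.35 (95% interval -0.18 to 0.87). Blank replicate 1, at 49.1 FPKM, lay inside that range.

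SRSF5 was lower in siSRSF1-3 replicate 1, at 44.2 FPKM, than in replicates 2 and 3, at 65.5 and 62.8 FPKM. SRSF10 was at 12.9, 14.2 and 18.1 FPKM (log2 fold change -0.25), SRSF3 at 51.7, 44.2 and 38.1 FPKM (-0.09), and SRSF2 at 31.5, 30.8 and 25.5 FPKM (-0.17). SRSF4 was at 8.70, 10.8 and 12.5 FPKM and SRSF8 at 14.5, 15.3 and 13.6 FPKM. Of these 9 relatives, SRSF4, SRSF6 and SRSF8 had positive log2 fold changes as deposited, and all of them became negative under rescaling to the same FPKM sum, where the median of all genes moved from -0.01 to -0.43 (-0.26 when scaled to own read totals). Scaling by the median read ratio over genes instead left the median of all genes at 0.01. Under it SRSF4, SRSF6 and SRSF8 stayed positive, and 0 members passed (1.21% of all genes). These signs thus depended on the choice of scaling, and no direction is given for the relatives of SRSF1 in this comparison. The shares within the family, in which such a scaling cancels, are given below.

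Both siRNAs were also compared with each other. None of the 10 members passed (limma), against 0.0855% of all genes tested, 2 had an unadjusted p under 0.05 (42.1% of all genes), SRSF3 and SRSF7, and voom called 0. SRSF7 was 1.40 times as high with siSRSF1-3 as with siSRSF1-2 in mean FPKM, with all 3 libraries above (log2 fold change 0.48, 95% interval 0.17 to 0.78, adjusted p = 0.0801 from limma). It passed in the single fit over all 4 groups (adjusted p = 0.0208), and its adjusted p ranged from 0.00616 to 0.781 over the alternatives. SRSF3 gave a log2 fold change of 0.38 (95% interval 0.03 to 0.73, adjusted p = 0.107). SRSF1 itself did not pass between the siRNAs (log2 fold change -0.37, 95% interval -1.15 to 0.42). SRSF3, SRSF7 and SRSF8 lay above and SRSF5 below the siSRSF1-2 libraries without overlap, where 54.6% of all genes tested did not overlap. Without siSRSF1-3 replicate 3, 5 members passed, SRSF2, SRSF3 and SRSF7 as higher and SRSF4 and SRSF10 as lower, among 61.2% of all genes.

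OE-LINC01134 was compared with blank cells, a contrast for which the study's text states no question. None of the 10 members passed (limma), against 1.18% of all genes tested, 3 had an unadjusted p under 0.05 (26.3% of all genes), SRSF4, SRSF7 and SRSF10, and voom called 0. SRSF1 was at 31.8, 29.6 and 30.3 FPKM, between blank replicate 1 and the other blank libraries (log2 fold change 0.32, 95% interval -0.23 to 0.87, adjusted p = 0.405 from limma). SRSF10 was at 25.0, 22.7 and 25.0 FPKM against 23.0, 15.4 and 15.8 FPKM in blank cells (0.45, 95% interval 0.04 to 0.86). SRSF4 was at 13.3, 12.5 and 12.7 FPKM (0.38, 95% interval 0.06 to 0.70) and SRSF7 at 47.2, 46.1 and 45.2 FPKM (0.26, 95% interval 0.01 to 0.51). SRSF4 and SRSF7 lay above and SRSF5 and SRSF8 below every blank library, where 30.6% of all genes tested did not overlap.

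The remaining members did not pass in this contrast either. SRSF9 was at 33.9, 35.6 and 34.5 FPKM (0.06, 95% interval -0.20 to 0.33), SRSF5 at 56.2, 59.3 and 55.1 FPKM (-0.16), and SRSF8 at 10.6, 12.5 and 10.4 FPKM (-0.22). SRSF2, SRSF3 and SRSF6 overlapped with blank cells, and their OE-LINC01134 replicate 2 was the highest of the group, at 33.4, 54.0 and 47.7 FPKM. Without blank replicate 1, SRSF1, SRSF4, SRSF7 and SRSF10 passed as higher, by 0.60, 0.50, 0.34 and 0.63 on the log2 scale (adjusted p = 0.0142, 0.0221, 0.0355 and 0.0161 from limma), among 13.9% of all genes.

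The family was also described as a whole. The summed FPKM of the 10 members was 324 ± 59.6 (SD, n = 3) in blank cells, 282 ± 4.11 with siSRSF1-2, 289 ± 21.9 with siSRSF1-3 and 334 ± 17.4 in OE-LINC01134, and these were given no test because they score chosen members. Blank replicate 1 summed to 393 FPKM and blank replicates 2 and 3 to 285 and 295 FPKM, so that the siRNA libraries lay near the latter. Without SRSF1 the sums were 299 ± 50.5, 275 ± 3.93, 283 ± 20.4 and 304 ± 18.0 FPKM in the same order.

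SRSF1 made up 7.67% ± 1.27 (SD, n = 3) of the family's FPKM in blank cells, 2.59% ± 0.0421 with siSRSF1-2, 2.06% ± 0.767 with siSRSF1-3 and 9.17% ± 0.687 in OE-LINC01134. SRSF6 made up 12.5%, 11.9% and 11.8% in the blank libraries, 17.7%, 17.7% and 17.9% with siSRSF1-2 and 21.0%, 14.8% and 15.9% with siSRSF1-3, so that every siRNA library lay above every blank library for both siRNAs. In OE-LINC01134 its share was 11.6%, 13.5% and 11.2%, overlapping with blank cells. SRSF4 took 2.95% to 3.16% in blank cells, 4.28% to 4.47% with siSRSF1-2 and 3.23% to 4.35% with siSRSF1-3. SRSF8 took 3.51% to 4.40%, 4.52% to 4.82% and 4.74% to 5.38% in these groups. With siSRSF1-2, 9 of the 10 shares did not overlap with blank cells, those of SRSF4, SRSF5, SRSF6, SRSF8 and SRSF10 above and those of SRSF1, SRSF3, SRSF7 and SRSF9 below. With siSRSF1-3, 4 did not overlap, those of SRSF4, SRSF6 and SRSF8 above and that of SRSF1 below. In OE-LINC01134, 3 did not overlap, those of SRSF4, SRSF7 and SRSF10, all above. A share of the family is not defined for other genes, so no share over all genes stands beside these counts. SRSF7, by contrast, took 9.33% to 9.50% with siSRSF1-2 and 11.8% to 13.4% with siSRSF1-3, below and overlapping the blank range of 10.9% to 12.6%. A share rises when another member falls, and these are descriptions with no test. The silenced SRSF1 is part of the sum, so its fall alone raises the shares of the other members with either siRNA. The counts above do not separate this from a change of a member itself, and no shares were taken over a sum without SRSF1. The blank and siRNA ranges nearly met for SRSF4 with siSRSF1-3 (3.16% and 3.23%) and for SRSF8 with siSRSF1-2 (4.40% and 4.52%). They lay further apart for SRSF6, at up to 12.5% in blank cells and 14.8% or more with the siRNAs.

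**Figure D3:**
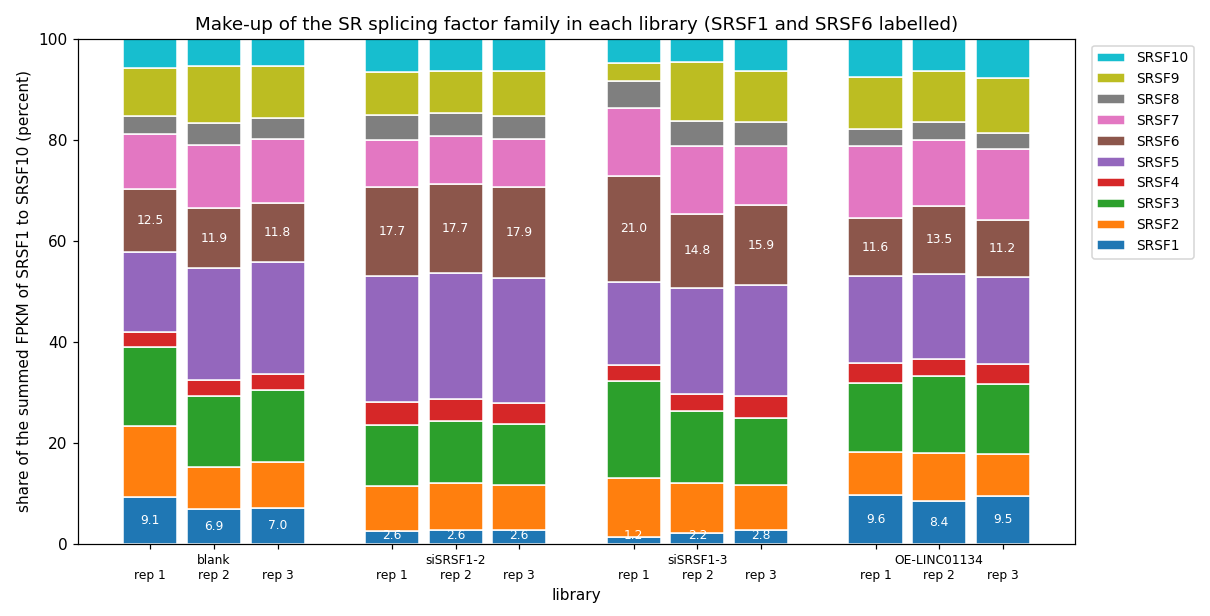
Share of each SR splicing factor in the summed FPKM of the 10 genes (vertical axis, percent), 1 bar for each of the 12 libraries, with the shares of SRSF1 and SRSF6 printed. SRSF1 takes 1.24% to 2.76% in the 6 siRNA libraries and 6.92% to 9.64% in the others, and SRSF6 takes 14.8% to 21.0% in the siRNA libraries and 11.2% to 13.5% in the others.

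Genes that act with the SR factors were described from a list of 37 relatives, kinases and partners, of which 34 passed the filter (SRSF12, SRRM4 and U2AF1 did not). With siSRSF1-2, 9 rose and 1 fell (limma), 10 of 34 where 26.8% of all genes passed, and the median log2 fold change was 0.16 against 0.02 over all genes. TRA2A, an SR-like activator of purine-rich exon enhancers, was the one that fell. It was at 16.0, 16.1 and 15.5 FPKM against 25.1, 24.7 and 25.7 FPKM in blank cells, without overlap (log2 fold change -0.66, standard error 0.0542, adjusted p = 0.00146 from limma).

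Among those that rose were 2 of the SR kinases. SRPK3 was at 2.83, 2.73 and 2.83 FPKM against 1.90, 1.31 and 1.28 FPKM (log2 fold change 0.88, adjusted p = 0.0127 from limma). SRPK2 was at 16.4, 16.8 and 17.1 FPKM against 13.3, 7.80 and 8.98 FPKM (0.77, adjusted p = 0.0313), and SRPK1 did not pass. DYRK1A, a kinase with splicing factors among its substrates, SRRM2, a scaffold of nuclear speckles, and CLASRP, a partner of the kinase CLK4, rose by 0.75, 0.62 and 0.38 on the log2 scale. SON, a further speckle scaffold, and SRSF11, SREK1 and LUC7L2, proteins of the spliceosome's early steps, rose by 0.54, 0.46, 0.57 and 0.36. Without blank replicate 1, 26 of the 34 passed (52.2% of all genes). Without blank replicate 2, 6 passed (18.4% of all genes), without blank replicate 3, 5 passed (17.8%), and without any one siSRSF1-2 library 1 passed (10.4% to 12.1%). With the 3 siSRSF1-2 libraries averaged to 1 sample, 0 passed.

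With siSRSF1-3, 0 of 34 passed (0 with voom), against 1.28% of all genes, with a median of -0.07 against -0.01 over all genes. At an unadjusted p under 0.05, 8 of the 34 and 28.8% of all genes passed. The 5 with the smallest adjusted p were CLASRP (log2 fold change 0.82), RNPS1, a protein of the exon junction complex (0.69), SRPK3 (0.80), LUC7L2 (0.62) and SCAF1 (0.63), with adjusted p from 0.0617 to 0.124 (limma). Against their read totals, the deposited scaling raised replicates 1 and 2 of this group, so no direction is given for these 5 genes. As deposited, SRPK3 was at 2.53, 2.60 and 2.79 FPKM, above every blank library as with siSRSF1-2. Its adjusted p ranged from 0.0107 to 0.516 over the alternatives (limma). TRA2A was at 21.0, 17.2 and 19.1 FPKM, likewise below every blank library, where 37.2% of all genes tested did not overlap. Its log2 fold change of -0.40 did not pass (adjusted p = 0.164 from limma). Between the siRNAs, 0 of 34 passed (0.0855% of all genes), with 20 at an unadjusted p under 0.05 (42.1% of all genes). SRPK2, at 4.67, 6.92 and 10.7 FPKM with siSRSF1-3, lay below all siSRSF1-2 libraries, where 54.6% of all genes tested did not overlap. Its log2 fold change of -1.24 did not pass (adjusted p = 0.0784 from limma). Without siSRSF1-3 replicate 3, 8 of the 34 passed against blank cells (35.9% of all genes) and 24 against siSRSF1-2 (61.2%).

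In OE-LINC01134, 1 of 34 passed (1.18% of all genes), SRPK1, a kinase of the SR tail, with a median over the list of 0.38 against 0.05 over all genes. At an unadjusted p under 0.05, 19 of the 34 and 26.3% of all genes passed. SRPK1 was at 10.8, 12.7 and 10.8 FPKM against 20.1, 18.5 and 18.7 FPKM in blank cells, and it fell by 0.74 on the log2 scale, with a standard error of 0.113 (adjusted p = 0.0445 from limma). SRPK2 had a positive value that did not pass, at 23.2, 18.3 and 23.3 FPKM (log2 fold change 1.13, adjusted p = 0.0601). TRA2B, PPIG and SREK1 had log2 fold changes of 0.52, 0.65 and 0.83 with adjusted p from 0.0770 to 0.0913. Without OE-LINC01134 replicate 2, 16 of the 34 passed (25.5% of all genes), without blank replicate 1, 10 passed (13.9%), and without any one of the other libraries 0 passed, SRPK1 included.

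**Figure D4:**
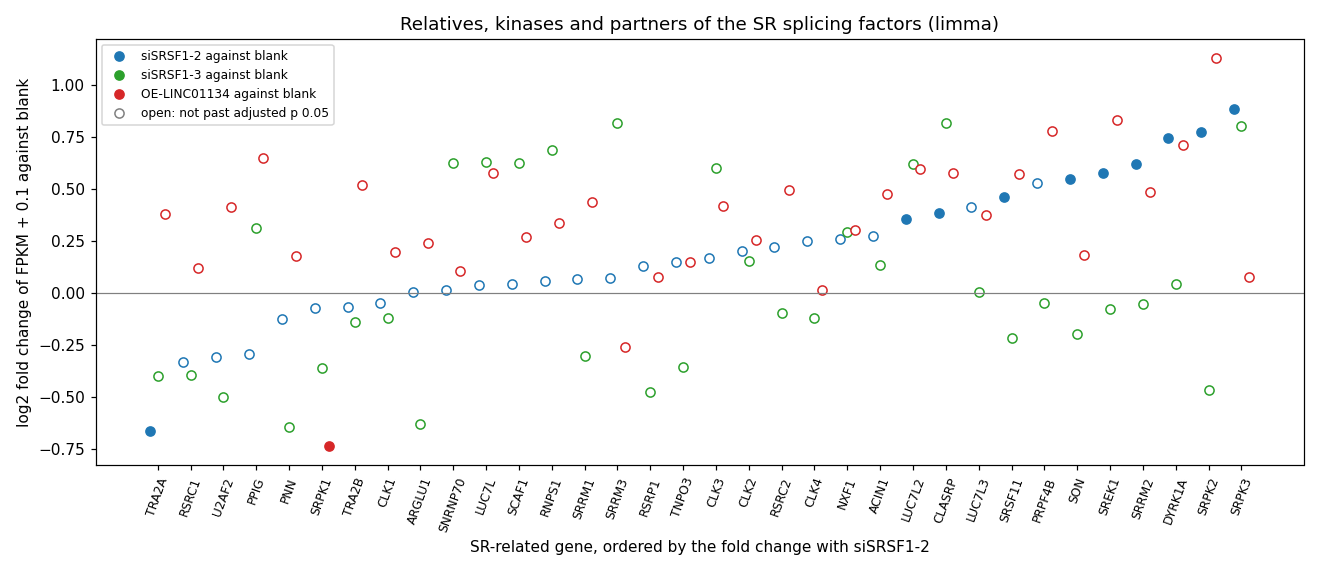
Log2 fold change of FPKM + 0.1 against blank cells (vertical axis) of the 34 SR-related genes tested (horizontal axis, ordered by the value with siSRSF1-2), for siSRSF1-2, siSRSF1-3 and OE-LINC01134, filled where the adjusted p from limma was under 0.05. Filled points are 10 genes with siSRSF1-2, of which TRA2A lies below 0, and SRPK1 in OE-LINC01134, and none with siSRSF1-3.

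The members did not form a single pattern over the 12 libraries. In log2 FPKM, Pearson's r was highest between SRSF2 and SRSF3 (0.82), SRSF3 and SRSF7 (0.80) and SRSF4 and SRSF10 (0.78), and lowest between SRSF8 and SRSF10 (-0.71) and between SRSF1 and SRSF8 (-0.67). The genes most like SRSF1 among all genes tested were TMEM123 (r = 0.99), LNP1 (0.98), the adhesion molecule MCAM (0.98), the kinesin KIF1C (0.98) and cyclin E2, CCNE2 (0.97), and no other SR factor was among these 5. All of these correlations are descriptions over 12 libraries that share groups and scaling.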

How the data were processed

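The authors deposited FPKM per gene and library, with gene length and coordinates, under human Ensembl identifiers and full names. The labels name mouse and the builds GRCm38 and mm10, which do not go with these identifiers, and the file names no build. The labels give a SMARTer kit and the supplementary methods a NEBNext kit with poly-T selection. The aligner and counting program are not given in the sources used here. Within a library, FPKM multiplied by length fell on whole steps (largest deviation 0.000153 of a read), which gave reads. The library sizes implied by the deposited FPKM were 0.712 to 1.09 times the read totals, and the origin of these factors was not tested.

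Columns were assigned to samples by name, with ASF read as SRSF1. From the files, log2(FPKM + 0.1) was, for the 17538 genes whose FPKM averaged 0.5 or more, fitted with limma 3.58.1 (lmFit, eBayes with trend) in R 4.3.3 for each pair of groups, two-sided, with Benjamini-Hochberg adjustment over all genes tested. Fold changes are on the log2(FPKM + 0.1) scale. The fit was also run on simulated libraries, which had a single setting of spread for all genes and groups. The replicates here spread unevenly, so that run does not gauge the calls made on these data. Single genes had exact permutation tests. The study compared groups with a count model and a minimum fold. Here limma was used because the values are FPKM, and the fold was an alternative, beside pseudocounts of 1 and 0.01, filters, scalings, voom, a single fit over the groups, a replicate block and leaving out each library. Averaging near-identical libraries was chosen after the data were seen. The members, lists and tests were chosen with earlier results of these data known. Named genes were the members, LINC01134, the 5 SR-related genes with the smallest adjusted p in each comparison with blank cells, the 5 genes most like SRSF1 and genes overlapping a member. Other genes of the list were named after their values were seen, where they passed the test. No sequence is shown.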

Additional observations from a re-analysis of the deposited data

How the results depend on the processing

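Of the 758 log2 fold changes of single genes recomputed under the alternatives, 685 kept their direction and their side of the threshold, 11 lost and 25 gained a call, and 37 changed sign, none of which passed the test as reported. The cause of these changes was not tested beyond what each alternative does. For siSRSF1-2 against blank cells, 27.3% of all genes passed when scaled to own read totals and 30.0% when rescaled to the same sum. With an absolute log2 fold change over 1, 4.95% passed, and in the single fit over all groups 3.76%. For siSRSF1-2 against blank cells, the number of SR factors passing (3) became 5 when scaled to own read totals, 6 when rescaled to the same sum, 0 with the siSRSF1-2 libraries or all near-identical libraries averaged, and 1 with an absolute log2 fold change over 1. The SR-related genes passing (10) became 16, 16, 0, 0 and 0 in these settings, and 2 in the single fit over all groups. SRSF1 gave -1.72 and -1.86 with the siSRSF1-2 libraries and all near-identical libraries averaged, no longer passing (adjusted p = 0.283 and 0.791 from limma), and in the latter SRSF8 gave -0.00077 and SRSF10 -0.055. For siSRSF1-3 against blank cells, 1 SR factor, SRSF1, passed with a pseudocount of 1 (-1.92), with voom (-2.11) and in the single fit (-2.09), where 8 SR-related genes passed. Of all genes, 2.50%, 3.85% and 27.8% passed in these settings. Scaled to own read totals, SRSF4 gave -0.16 and SRSF8 -0.10, and rescaled to the same sum SRSF4 gave -0.34, SRSF6 -0.10 and SRSF8 -0.29. For OE-LINC01134, the SR-related genes passing (1) became 2 when rescaled to the same sum or with voom, 3 in the single fit, and 0 with no filter, without a trend, with near-identical libraries averaged or with the minimum fold, and SRSF3 gave -0.040 with voom and -0.037 with averaging. Of all genes, 1.61% passed when rescaled to the same sum, 2.86% with voom and 6.68% in the single fit. Between the siRNAs, 1 SR factor and 10 SR-related genes passed in the single fit, where 32.3% of all genes passed. Scaled to own read totals, SRSF2 gave -0.13 and SRSF8 -0.17, and rescaled to the same sum SRSF2 gave -0.40, SRSF3 -0.20, SRSF7 -0.10 and SRSF8 -0.44. The summed FPKM of the family became 305 and 330 with siSRSF1-2 and 258 and 238 with siSRSF1-3 (own totals and same sum), and 380 in OE-LINC01134 (same sum).

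Replicate numbers did not pair the libraries: same-numbered libraries correlated at -0.08 to 0.21 in their deviations from group means. With the replicate block, 2 SR factors (SRSF1 and SRSF7, with SRSF9 at adjusted p = 0.0579 from limma) and 3 SR-related genes passed with siSRSF1-2 (2476 of all genes, from 4702), 0 SR-related genes in OE-LINC01134, and 0, 4 and 0 of all genes with siSRSF1-3, in OE-LINC01134 and between the siRNAs.

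Leaving out single libraries gave 2 to 8 SR factors for siSRSF1-2, 0 to 1 for siSRSF1-3, 0 to 4 for OE-LINC01134 and 0 to 5 between the siRNAs, and 1 to 26, 0 to 8, 0 to 16 and 0 to 24 SR-related genes. Beside SRSF1, other members changed side of the threshold without changing sign. With siSRSF1-2, SRSF3, SRSF4, SRSF5 and SRSF6 gained a call without blank replicate 1, and SRSF9 lost its call without any one siSRSF1-2 library. In OE-LINC01134, SRSF4, SRSF7 and SRSF10 gained one without blank replicate 1. Between the siRNAs, SRSF2, SRSF3, SRSF4, SRSF7 and SRSF10 gained one without siSRSF1-3 replicate 3. Log2 fold changes that changed sign, and those of SRSF1 that changed side, ranged as follows: with siSRSF1-2, SRSF2 from -0.59 to 0.027, SRSF8 from -0.0021 to 0.067 and SRSF10 from -0.065 to 0.22. With siSRSF1-3, SRSF1 ranged from -2.33 to -1.72, SRSF2 from -0.41 to 0.21, SRSF3 from -0.21 to 0.10, SRSF4 from -0.021 to 0.24, SRSF5 from -0.27 to 0.017 and SRSF7 from -0.14 to 0.022. In OE-LINC01134, SRSF1 ranged from 0.17 to 0.60, SRSF2 from -0.42 to 0.20, SRSF3 from -0.10 to 0.21 and SRSF6 from -0.066 to 0.23. Between the siRNAs, SRSF1 ranged from -0.61 to 0.0031, SRSF6 from -0.13 to 0.030 and SRSF9 from -0.53 to 0.43. With 3 libraries a group, of which some differed by little more than sampling noise, small changes of a member could not be shown.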

Other observations

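Several members share bases with other genes, and the counting is not stated to use strand, so that reads of antisense partners cannot be told apart. An unnamed transcript (ENSG00000279069) lies antisense over 673 bases of SRSF1. It was at 4.06, 1.72 and 1.92 FPKM in blank cells, 1.63, 1.63 and 1.71 FPKM with siSRSF1-2, 1.45, 2.13 and 2.10 FPKM with siSRSF1-3, and 3.24, 3.34 and 4.09 FPKM in OE-LINC01134, with at most 177 reads in a library. It was thus highest in the same blank library as SRSF1, and with siSRSF1-2 it differed from blank cells by -0.50 in log2 (adjusted p = 0.288 from limma). MFSD11, antisense to SRSF2, was at 2.61 to 2.86 FPKM with siSRSF1-3 and at 3.60 to 4.01 FPKM in blank cells, a log2 fold change of -0.44 that did not pass (adjusted p = 0.148 from limma).

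GATC, a subunit of a mitochondrial transamidase, is antisense to SRSF9 over 2082 bases. As deposited, SRSF9 was at its lowest, 9.66 FPKM, and GATC at its highest, 10.6 FPKM, in siSRSF1-3 replicate 1. GATC was at 7.29 and 6.72 FPKM in the other replicates and at 5.19 to 6.46 FPKM in blank cells. In reads, which that scaling does not touch, GATC reached at most 926 with siSRSF1-3 and 1019 in OE-LINC01134. Replicate 1 of siSRSF1-3 also had the lowest implied size, 0.712 times its read total, and the lowest SRSF1, 3.33 FPKM. Its mitochondrial share of reads, 6.75%, lay within the blank range of 6.46% to 6.96%. Whether these values bear on SRSF9 was not tested. Pseudogenes of the members had at most 6 reads in any library.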
